A study of Arabidopsis thaliana with 12 samples.

Results

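The transcriptome of whole seedlings of the Arabidopsis thaliana mutant geralt was compared between 5 and 12 days of age. The libraries were taken by their titles: 3 were labelled as 12-day phr2 plants (numbers 5, 9 and 11) and 3 as 5-day phr2 plants (numbers 1, 3 and 7), so 6 of the 12 libraries of the series entered the comparison. geralt is a T-DNA insertion line, SALK_116579, which the titles also call phr2 after the photolyase-family gene PHR2 that it affects, and the 6 libraries therefore stand for a single insertion allele. The other 6 libraries came from wild-type Col N6000 plants, 3 at 5 days and 3 at 12 days, and served as the reference for the same interval. All plants of both genotypes grew in vitro on agar-solidified B5 medium with 1% sucrose under 10 h of light and 14 h of darkness, and were collected about 4 h after lights-on. RNA came from 100 mg of ground plant material, so each library is a pool of an unstated number of seedlings. Polyadenylated RNA was sequenced, and nothing in the labels says whether the replicates were separate sowings, so p-values measure the spread between these libraries only.

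Between the cotyledon stage and the emergence of true leaves, an Arabidopsis seedling passes from living on seed oil to living on photosynthesis. The glyoxylate cycle that converts the oil to sugar is switched off. Light-harvesting antenna proteins, which surround the photosystems and bind chlorophyll, are made from nuclear genes. Rubisco, which fixes carbon dioxide in the Calvin cycle, is made from nuclear and plastid genes in step. Young leaves also build aliphatic glucosinolates, sulfur-containing defence compounds made from methionine, and lay down a wax cuticle as their epidermis expands.

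The geralt libraries held 43070203 to 67422299 reads in genes, and all 12 held 41570149 to 115028637. Plastid genes took 0.133 to 0.379% of the reads in the 5-day geralt libraries, 0.297% in 12-day library 5, and 0.720% and 0.574% in 12-day libraries 9 and 11. PHR2 itself was at 39.7, 20.6 and 28.0 CPM (reads per 1000000 of the scaled library) in 5-day libraries 1, 3 and 7 and at 30.5, 24.5 and 31.8 CPM in 12-day libraries 5, 9 and 11. Every geralt library lay below every wild-type library, which spanned 89.2 to 271 CPM, and the 2 ages of geralt overlapped (log2 fold change -0.02 ± 0.34 SE).

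Library 5 carries the 12-day label and stood apart from both ages. It was the highest of the 6 geralt libraries in 23.4% of 21122 genes and the lowest in 23.2%, against 10.2 to 18.5% and 11.1 to 17.0% for the other 5. Its Spearman correlation was 0.957 to 0.978 with the 5-day geralt libraries and 0.955 with each of libraries 9 and 11. Libraries 9 and 11 had 0.978 with each other and 0.965 to 0.974 with the 5-day libraries, so this measure did not place library 5 nearer to the 5-day plants than libraries 9 and 11 were. On the first axis of a multidimensional scaling plot, which held 32.2% of the variation, library 5 was at 2.01, the 5-day geralt libraries at 1.53 to 1.94, and libraries 9 and 11 at -0.02 and -0.20. Each result is therefore given with library 5 and, where it changes, without it. Whether its label, its growth or its handling sets it apart was not tested.

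Another scale was anchored on the wild-type plants. It used the 1129 genes (5.35% of 21122) that DESeq2 called between 12 and 5 days in wild type. The mean of the wild-type 5-day libraries was set to 0 and that of the 12-day libraries to 1. These calls came from a fit of all 12 libraries, so geralt libraries entered the estimate of spread. Without library 5 that fit called 1970 of 21359 genes in wild type, so the choice of genes was not independent of library 5. The 5-day geralt libraries 1, 3 and 7 stood at 0.10, 0.22 and -0.04. The 12-day libraries 9 and 11 stood at 0.41 and 0.43, and library 5 at -0.20, below each 5-day library of either genotype. The wild-type 12-day libraries ranged from 0.69 to 1.23, and no geralt library reached the lowest of them. The genes were chosen for their difference between these same wild-type libraries, which widens the wild-type gap. The distance of the geralt libraries from 1 is therefore not read as a result. Of the 666 genes (3.15%) that were higher in older wild-type plants, 380 (57.1%) were also higher in the older geralt plants, against 53.3% of all genes. Without library 5 it was 498 (74.8%), against 49.6% of all genes. Of the 463 genes (2.19%) lower in older wild type, 264 (57.0%) were lower in geralt with library 5 and 386 (83.4%) without it, against 46.7% and 50.3% of all genes.

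**Figure D1:**
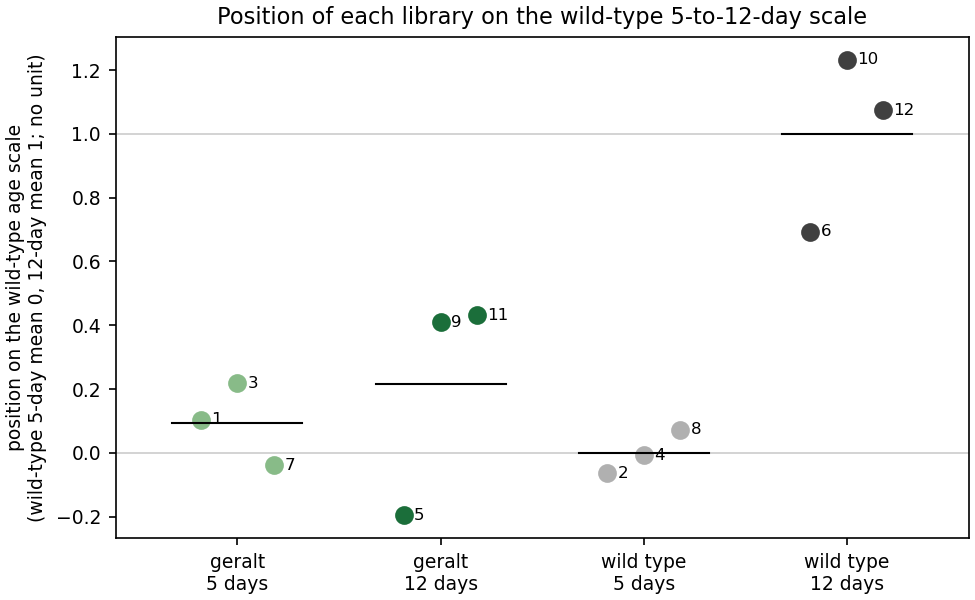
Each point is 1 library, marked with its number, on the wild-type age scale (no unit); black bars are group means. Libraries 9 and 11 sit at 0.41 and 0.43 between the wild-type ages. The 12-day library 5 sits at -0.20, below each 5-day library of either genotype.

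No gene passed the main test. With edgeR's quasi-likelihood test over all 12 libraries, 0 of 21122 genes (0%) had an adjusted p under 0.05 between 12 and 5 days in geralt, and 974 (4.61%) had an unadjusted p under 0.05. In wild type the same fit also called 0 genes (0%), with 4179 (19.8%) under an unadjusted 0.05. DESeq2 called 62 genes (0.294%) in geralt, 39 higher (0.185%) and 23 lower (0.109%) in older plants. Of those, 27 of the higher and 20 of the lower had all 3 libraries of one age on the same side of all 3 of the other. Under 1 CPM in every geralt library were 6 of the 62. On simulated counts DESeq2 made more false calls than edgeR and recovered more of the changed genes. Each gene was simulated independently, so no simulated library was set apart across many genes as library 5 was. Over all genes, the 12-day libraries were all above the 5-day libraries for 999 genes (4.73%) and all below for 982 (4.65%). Without library 5, edgeR called 8 genes (0.0375% of 21359), all higher, with 1622 (7.59%) under an unadjusted 0.05. DESeq2 then called 290 genes (1.36%), 242 of them higher (1.13%) and 48 lower (0.225%). The median log2 fold change over all genes was 0.02 with library 5 and -0.003 without it.

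**Figure D2:**
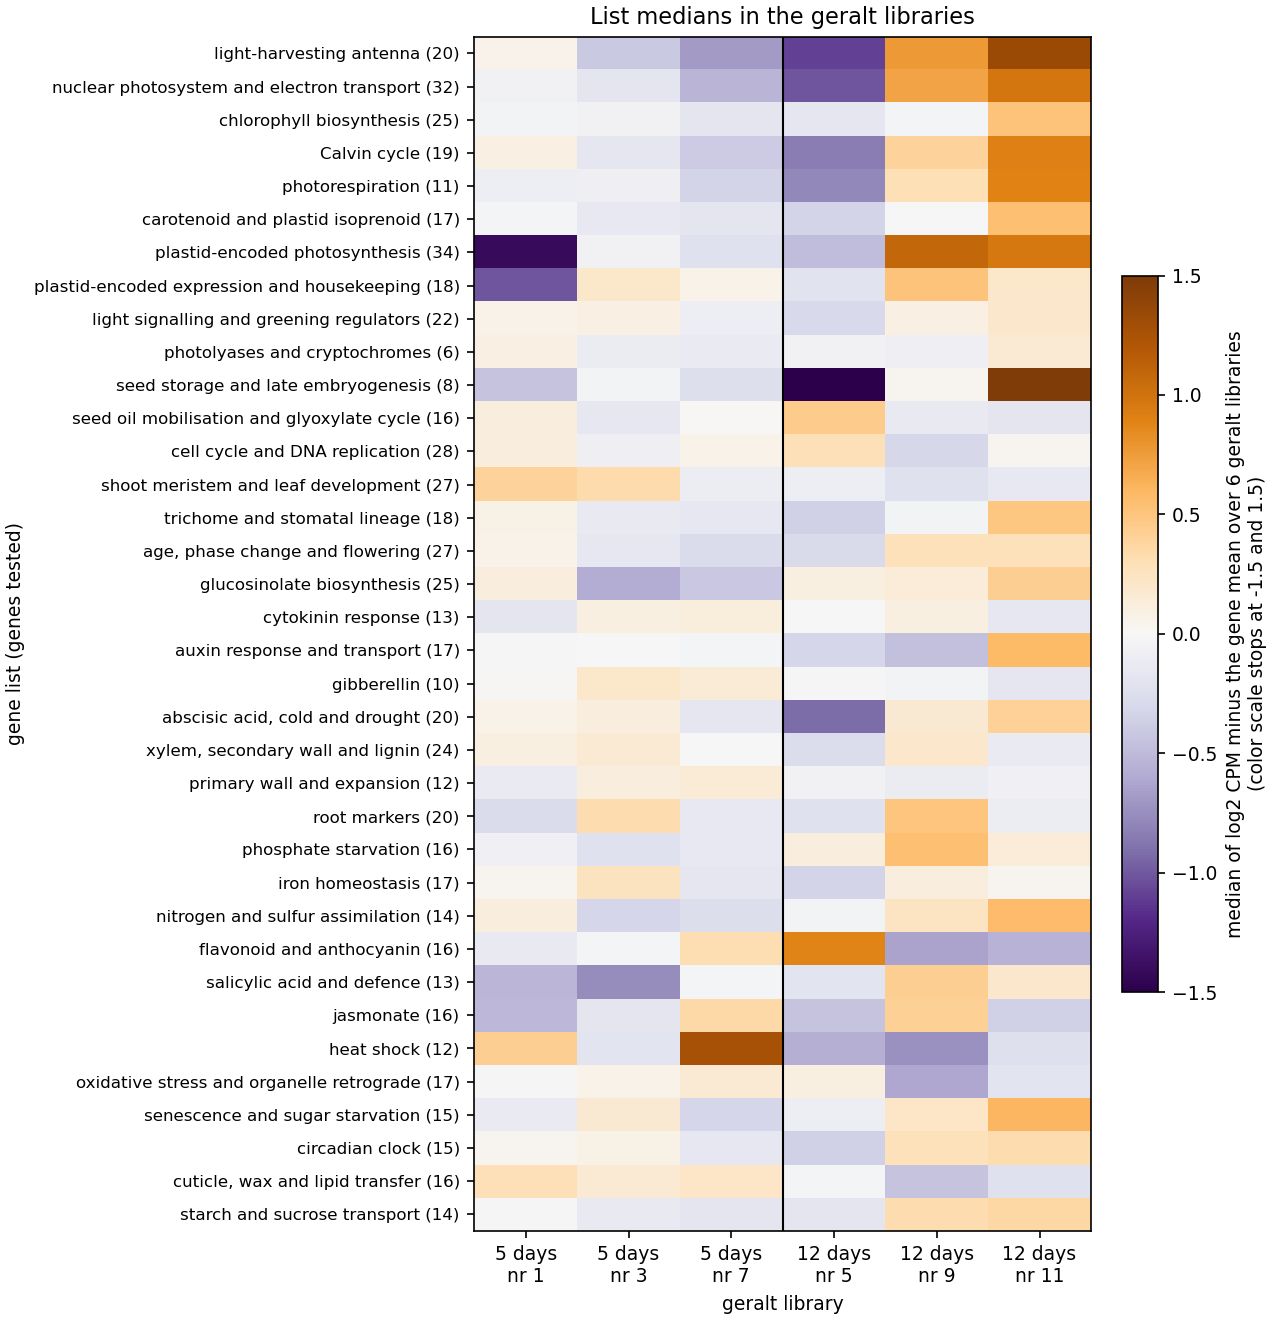
Rows are the 36 gene lists, columns the 6 geralt libraries, and color the list's median log2 CPM after each gene's mean over the 6 libraries was subtracted. The antenna row runs from -1.09 in 12-day library 5 to 1.33 in 12-day library 11.

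Nuclear genes of the photosynthetic apparatus were mostly higher in 12-day libraries 9 and 11 and lowest in library 5. All 20 light-harvesting antenna genes were above the 5-day libraries in libraries 9 and 11 (background 15%). In library 5, 18 of the 20 were below all 3 of the 5-day libraries (background 30.1%). The list's median log2 fold change was 0.95 with library 5, 1.37 without it and 0.38 without library 11, and 0.50 in wild type. None of the 20 passed the edgeR test in either fit; DESeq2 called 1 with library 5 (0.294% of all genes) and 8 without it (1.36% of all genes). In bulk tissue, a smaller share of green cells and less of these RNAs per cell cannot be told apart.

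LHCB2.3, an antenna protein of photosystem II, was at 24.6, 37.5 and 11.3 CPM in 5-day libraries 1, 3 and 7. It was at 4.98 CPM in 12-day library 5 and at 416 and 340 CPM in libraries 9 and 11. The last 2 were just above the lowest wild-type library (333 CPM), and library 5 was the lowest of the 12 libraries. The log2 fold change was 3.37 ± 1.09 SE with library 5 (edgeR adjusted p = 0.888) and 3.95 ± 0.66 SE without it (edgeR adjusted p = 0.0692). LHCB1.4 had the same pattern, with 338, 283 and 175 CPM at 5 days, then 173 CPM in library 5, 2607 CPM in library 9 and 2028 CPM in library 11. LHCA4, an antenna protein of photosystem I, ranged from 2422 to 4235 CPM at 5 days and was at 1807, 7606 and 10363 CPM in libraries 5, 9 and 11.

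LHCB4.3 was the exception among the antenna genes. It was at 4.17, 3.61 and 3.73 CPM at 5 days and at 6.03, 16.4 and 13.1 CPM in libraries 5, 9 and 11, so the ages did not overlap even with library 5. This was a log2 fold change of 1.62 ± 0.38 SE (edgeR adjusted p = 0.801). In wild type the gene had the opposite order, 15.1 to 28.4 CPM at 5 days and 5.33 to 11.1 CPM at 12 days.

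A gene of the small subunit of Rubisco showed the same split. RBCS2B (AT5G38420, chr5:15380907-15382071, minus strand) was at 65.7, 58.8 and 78.8 CPM in the 5-day libraries, 41.5 CPM in library 5, and 627 and 824 CPM in libraries 9 and 11. Wild-type libraries held 3203 to 13263 CPM, so even the higher geralt libraries stayed below all of them. Without library 5 the gene rose by a log2 fold change of 3.42 ± 0.48 SE (edgeR adjusted p = 0.0479); with it the value was 2.88 ± 0.80 SE (edgeR adjusted p = 0.866). All 19 Calvin cycle genes were below the 5-day libraries in library 5 (background 30.1%), and 14 of 19 were above them in libraries 9 and 11 (background 15%). The list's median log2 fold change was 0.55 with library 5, 0.84 without it, 0.08 without library 11 and 0.09 in wild type.

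Other nuclear photosynthesis lists followed. Of 32 genes of the photosystems and electron transport, 29 were above the 5-day libraries in libraries 9 and 11 (background 15%). In library 5, 28 were below the 5-day libraries (background 30.1%). The median log2 fold change was 0.59, or 1.01 without library 5 and 0.25 without library 11. NPQ4, the photosystem II subunit needed for non-photochemical quenching, was at 300, 272 and 210 CPM at 5 days, 161 CPM in library 5, and 685 and 942 CPM in libraries 9 and 11. Photorespiration genes had a median of 0.53, or 0.88 without library 5 and 0.03 without library 11, over 11 genes. Chlorophyll biosynthesis moved less, with a median of 0.25, or 0.36 without library 5 and 0.03 without library 11, over 25 genes. Of these, 10 were above the 5-day libraries in libraries 9 and 11 (background 15%) and 9 were below them in library 5 (background 30.1%). Within this list, the protochlorophyllide reductase gene PORB was at 72.8, 33.8 and 31.7 CPM at 5 days, 40.6 CPM in library 5, and 135 and 212 CPM in libraries 9 and 11. Of the paired regulators of chloroplast development, GLK2 was at 22.2 to 41.5 CPM at 5 days and at 15.9, 84.9 and 88.2 CPM in libraries 5, 9 and 11. GPRI1, also called GLK1, overlapped between ages at 18.8 to 40.7 CPM in all 6 geralt libraries, under the 82.3 to 279 CPM of wild type.

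Plastid photosynthesis genes were also split between the 12-day libraries, but library 5 was mostly inside the 5-day range. Of 34 tested, 24 were above the 5-day libraries in libraries 9 and 11 (background 15%). In library 5, 3 were below all 5-day libraries (background 30.1%) and 3 above (background 30.3%). The list's median centred log2 CPM was lowest in 5-day library 1, at -1.42, and was -0.49 in library 5. RBCL, the large subunit of Rubisco, was at 11.3, 23.0 and 33.7 CPM at 5 days, 20.9 CPM in library 5, and 715 and 652 CPM in libraries 9 and 11. PSBA, the D1 protein of photosystem II, was at 20.8, 51.9 and 53.6 CPM, then 47.4 CPM in library 5, and 833 and 1014 CPM in libraries 9 and 11. In both genes libraries 9 and 11 were more than 10 times the other 4, and library 5 was inside the 5-day range. RBCL had a log2 fold change of 4.35 ± 1.09 SE (edgeR adjusted p = 0.801; DESeq2 adjusted p = 0.0221) and PSBA one of 3.91 ± 0.99 SE (edgeR adjusted p = 0.801; DESeq2 adjusted p = 0.0325). Over 34 tested plastid photosynthesis genes the median was 1.12, or 1.46 without library 5, and -0.12 in wild type. Over 18 plastid genes for gene expression and housekeeping it was 0.31 in geralt and -0.83 in wild type; leaving out single libraries moved the former between 0.05 (without library 1) and 0.51 (without library 3 or 7). Chloroplast messages are mostly not polyadenylated, so a poly(A)-selected library samples them unevenly, and library 1 and wild-type 12-day library 12 had plastid shares of only 0.133% and 0.156%.

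The 250 bases upstream of RBCS2B and LHCB2.3, read from the RefSeq genome TAIR10.1, are shown because these genes had the largest log2 fold change without library 5 in the Calvin cycle and antenna lists. Capitals mark the G-box (CACGTG) and the I-box (GATAAG, or CTTATC on the other strand), motifs known from light-regulated promoters. The windows are chr5:15382072-15382321 (minus strand) and chr3:10255656-10255905 (plus strand).
RBCS2B: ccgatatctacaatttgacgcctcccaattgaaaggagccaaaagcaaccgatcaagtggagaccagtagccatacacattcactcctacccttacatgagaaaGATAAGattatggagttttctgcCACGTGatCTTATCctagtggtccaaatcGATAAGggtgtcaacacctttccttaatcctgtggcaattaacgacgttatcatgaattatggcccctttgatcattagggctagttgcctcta
LHCB2.3: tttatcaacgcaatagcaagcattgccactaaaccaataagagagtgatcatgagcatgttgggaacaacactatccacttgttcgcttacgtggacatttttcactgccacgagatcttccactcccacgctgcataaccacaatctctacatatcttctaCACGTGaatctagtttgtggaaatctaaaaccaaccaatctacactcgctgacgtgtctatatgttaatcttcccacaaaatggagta
RBCS2B held 1 G-box and 3 I-boxes, and LHCB2.3 held 1 G-box and 0 I-boxes. Over all 27443 protein-coding genes of the 5 chromosomes, the same window held a G-box in 6.49% and an I-box in 12.3%, searched on both strands. Among the 20 antenna genes 4 held a G-box and 4 an I-box, and among the 19 Calvin cycle genes 3 and 4. A match is a description of these letters only.

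The 8 genes that edgeR called without library 5 all rose. AT1G66100, a thionin (a small cysteine-rich peptide of a family with antimicrobial members), was at 0.302, 0.186 and 0.0734 CPM at 5 days, 0.0180 CPM in library 5, and 8.49 and 12.4 CPM in libraries 9 and 11. AT1G13650, an uncharacterized protein, was at 0.109 to 0.220 CPM at 5 days, 0.0361 CPM in library 5, and 5.96 and 6.05 CPM in libraries 9 and 11. Library 5 was within or below the 5-day range in 7 of the 8 genes. The log2 fold changes of these 2 genes without library 5 were 5.74 ± 0.67 SE (edgeR adjusted p = 0.0168) and 5.11 ± 0.53 SE (edgeR adjusted p = 0.0073).

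FUM2, the cytosolic fumarase that stores daytime carbon as fumarate, was at 6.09, 2.78 and 2.15 CPM at 5 days, 1.77 CPM in library 5, and 25.1 and 26.6 CPM in libraries 9 and 11. Its log2 fold change without library 5 was 2.81 ± 0.38 SE (edgeR adjusted p = 0.0479). In wild type FUM2 also stood higher at 12 days, 126 to 209 CPM against 52.9 to 72.5 CPM with no overlap. The remaining 4 besides RBCS2B were the uncharacterized AT1G76955, the O-methyltransferase family gene AT1G77530, the receptor-like kinase gene RFK1 and the cysteine-rich receptor-like kinase gene CRK18. CRK18 was the one whose library 5 value (23.0 CPM) was above the 5-day range of 17.5 to 19.8 CPM, with 52.5 and 61.0 CPM in libraries 9 and 11.

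**Figure D3:**
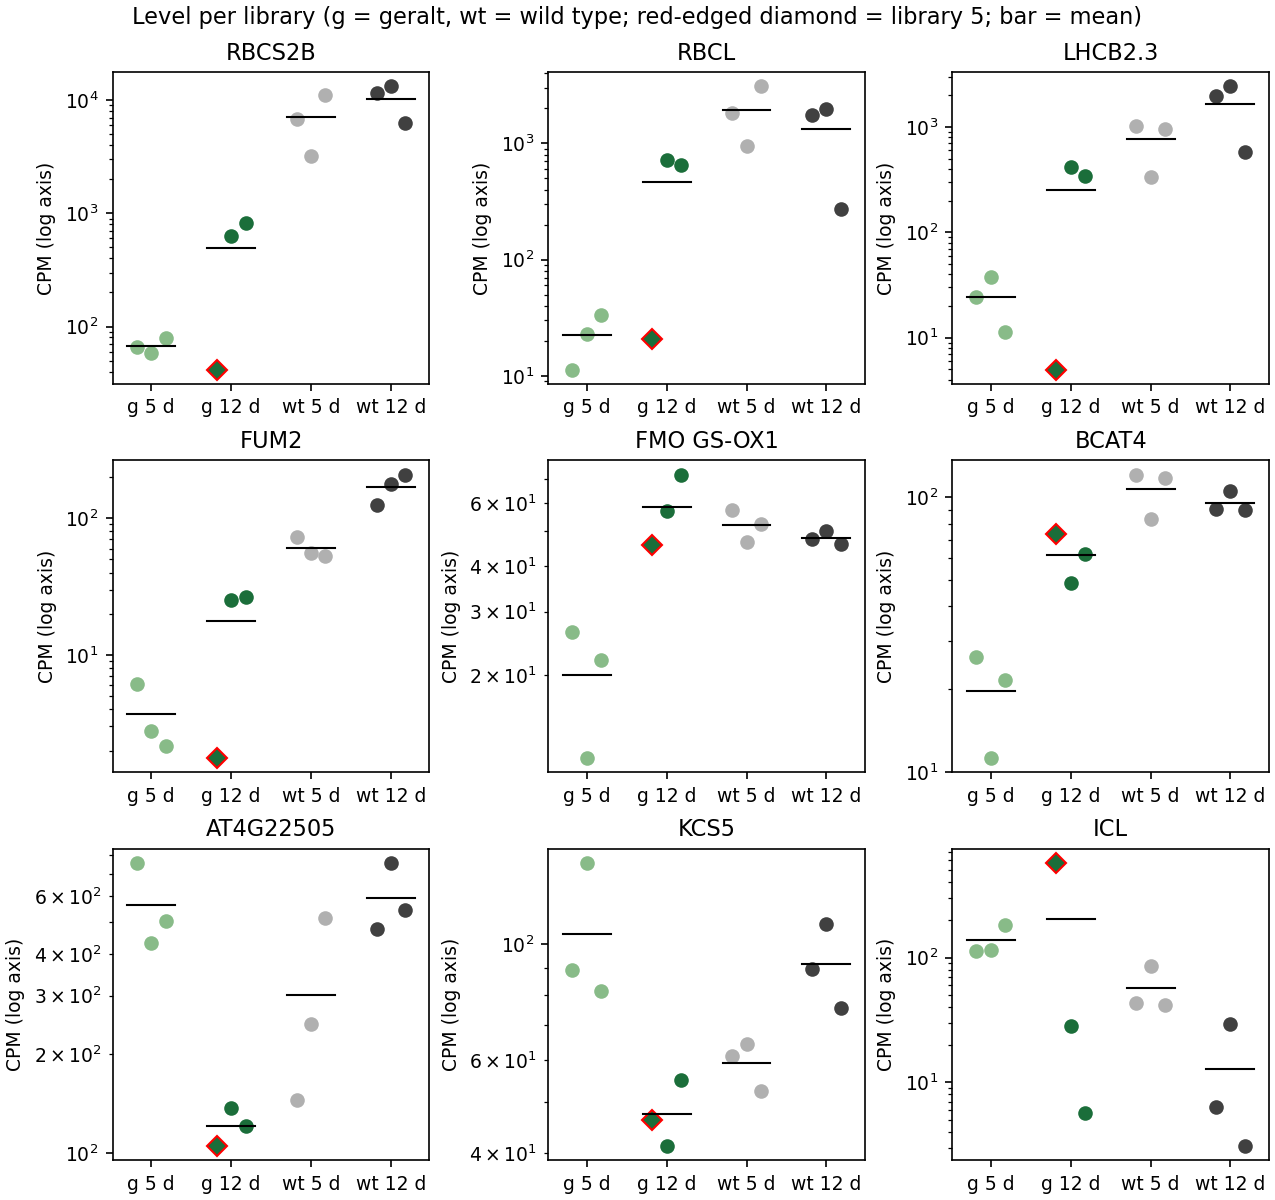
Each panel gives the CPM of 1 gene (log axis) in the 12 libraries, with the mean of each group as a bar and 12-day geralt library 5 as a red-edged diamond. In RBCS2B, RBCL, LHCB2.3 and FUM2 the diamond lies with or below the 5-day points, in FMO GS-OX1, BCAT4, AT4G22505 and KCS5 it lies with the other 12-day points, and in ICL it is the highest of all, at 574 CPM.

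Some genes of glucosinolate synthesis were higher in all 3 of the 12-day libraries, library 5 included. Of 25 tested glucosinolate genes, 7 had no overlap between ages in the higher direction (28.0%, background 4.73%) and 1, SOT16, in the lower. The median log2 fold change was 0.35, or 0.39 without library 5 and 0.65 without library 1, and 0.03 in wild type. No member passed the edgeR test. DESeq2 called 4 of the 25 (0.294% of all genes).

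The 7 were BCAT4, BAT5, MAM1, CYP79F1, CYP83A1, FMO GS-OX1 and FMO GS-OX3, all known from the aliphatic branch, and they were grouped after their values were seen. The list holds other genes of that branch, among them MAM3, CYP79F2, SOT17 and SOT18. These overlapped between ages or were not tested, so the separation did not cover the whole branch. BCAT4, the aminotransferase that starts methionine chain elongation, was at 26.2, 11.2 and 21.6 CPM at 5 days and at 73.6, 48.7 and 62.0 CPM in libraries 5, 9 and 11. The ages did not overlap, and the 12-day values stayed under the 83.6 to 121 CPM of the 6 wild-type libraries. Its log2 fold change was 1.64 ± 0.29 SE (edgeR adjusted p = 0.541; DESeq2 adjusted p = 0.00037). BAT5, a plastid transporter of the pathway's keto acids, was at 17.5 to 24.3 CPM at 5 days and 33.2 to 42.1 CPM at 12 days. MAM1, which elongates the methionine chain, was at 83.3 to 203 CPM and then 209 to 379 CPM.

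CYP79F1, which converts the elongated methionines to aldoximes, was at 27.6, 8.90 and 12.7 CPM at 5 days and 33.6, 55.1 and 87.2 CPM in libraries 5, 9 and 11. CYP83A1, the next enzyme, was at 91.0, 31.3 and 78.9 CPM and then 198, 185 and 231 CPM, inside the wild-type range of 176 to 279 CPM. Its log2 fold change was 1.61 ± 0.34 SE (edgeR adjusted p = 0.556; DESeq2 adjusted p = 0.00476). FMO GS-OX1, which oxidizes the side chain, was at 26.3, 11.8 and 22 CPM and then 45.8, 57.1 and 71.8 CPM. Wild type held 46.0 to 57.3 CPM of FMO GS-OX1 at both ages, so the 5-day geralt libraries were below wild type and the 12-day libraries spanned its range.

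The regulators of the pathway did not show this separation. MYB28 ranged from 36.7 to 84.5 CPM at 5 days and 47.8 to 68.7 CPM at 12 days (log2 fold change 0.05 ± 0.28 SE), and MYB29 from 6.87 to 16.2 CPM and 10.7 to 14.7 CPM. CYP83B1, an enzyme of the indolic branch, also overlapped at 315 to 364 CPM and then 359 to 501 CPM. Library 3 was the lowest 5-day library in 6 of the 7 genes, and library 7 in BAT5.

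**Figure D4:**
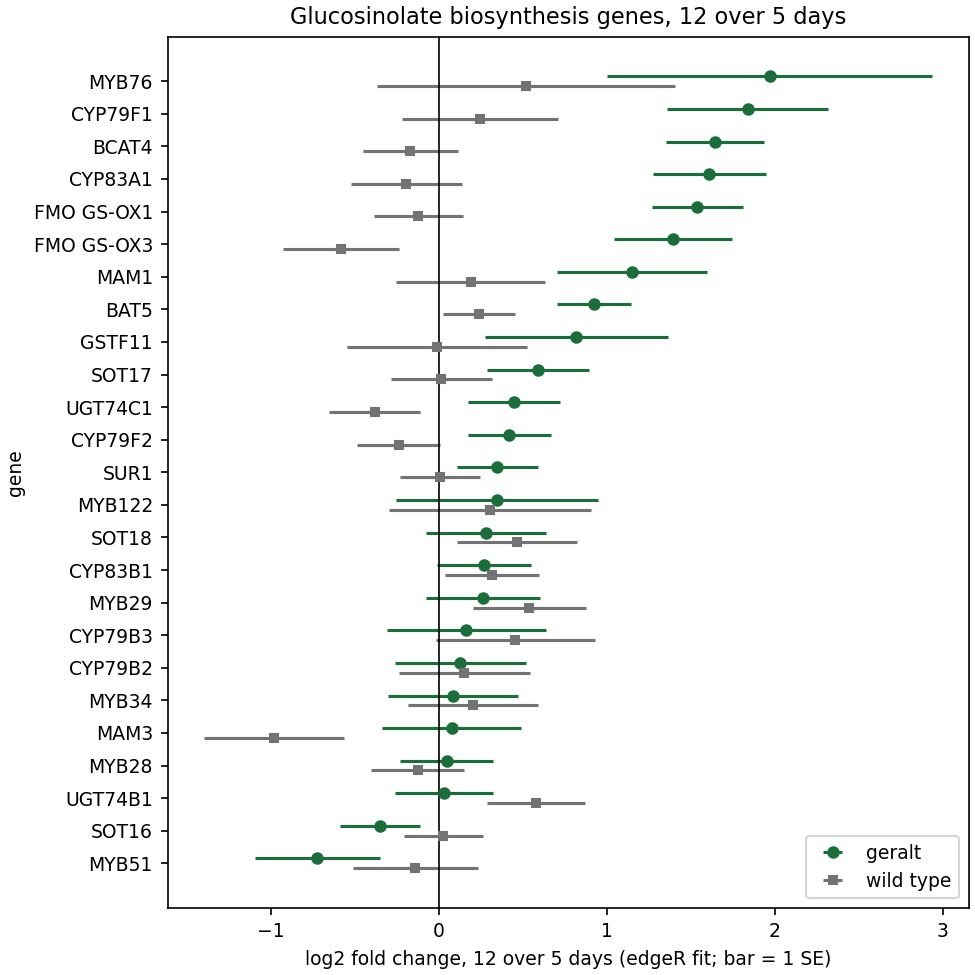
Points are the log2 fold change of 12 over 5 days for each tested glucosinolate gene, with 1 SE, in geralt (circles) and wild type (squares). BCAT4, CYP83A1 and FMO GS-OX1 lie at 1.64, 1.61 and 1.54 in geralt and at -0.17, -0.19 and -0.12 in wild type.

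Another 6 higher genes without overlap were among the 10 with the smallest p. AK3, an aspartate kinase of the pathway to methionine and threonine, was at 7.80, 3.54 and 5.38 CPM at 5 days and 17.9, 25.4 and 21.3 CPM in libraries 5, 9 and 11. All 12-day libraries were above the highest 5-day value and still below wild type (31.6 to 70.5 CPM). AK3 had a log2 fold change of 1.95 ± 0.31 SE (edgeR adjusted p = 0.541; DESeq2 adjusted p = 3.78e-05). GSTF14, a glutathione transferase, was at 1.03 to 2.73 CPM and then 6.43 to 14.0 CPM. AT5G18840, a member of the major facilitator transporters, was at 0.543 to 0.716 CPM and then 1.98 to 2.29 CPM. The phloem lectin-family gene PP2-A6 and the MATE transporter gene DTX10 were near the limit of detection at 5 days (at most 0.0549 and 0.0367 CPM) and reached 0.433 to 1.13 and 0.298 to 0.378 CPM. AT1G77960, annotated as ROX1-like, was at 0 to 0.0776 CPM and then 0.235 to 0.889 CPM.

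The lower side was led by neighbouring genes on chromosome 4. Between AT4G22485 and AT4G22520 (chr4:11844506-11858970), 6 tested genes encode proteins of the lipid-transfer and 2S albumin superfamily, small cysteine-rich proteins that are often secreted. Of the 6, 5 had all 12-day libraries below all 5-day libraries, and DESeq2 called those 5. The span was drawn around 4 of these genes, which were named for their small p, so the count is a description and is not read against the 4.65% of all genes. On either side, the tested AT4G22460, AT4G22467, AT4G22470, AT4G22530 and AT4G22540 overlapped between ages; AT4G22470 was at 41.2 to 69.3 CPM and then 37.7 to 253 CPM. AT4G22505 was at 755, 433 and 504 CPM at 5 days and at 105, 137 and 121 CPM in libraries 5, 9 and 11. The 3 older libraries, library 5 included, lay together far below the lowest 5-day library, and the log2 fold change was -2.22 ± 0.41 SE (edgeR adjusted p = 0.555; DESeq2 adjusted p = 0.000183).

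AT4G22485 was at 580, 555 and 358 CPM and then 92.2, 139 and 132 CPM, a log2 fold change of -2.04 ± 0.42 SE (edgeR adjusted p = 0.556). AT4G22490 was at 174 to 346 CPM and then 77.8 to 99.9 CPM. AT4G22513 and AT4G22520 were at 51.8 to 101 and 41.4 to 103 CPM and then at 18.6 to 33.9 and 14.8 to 26.5 CPM. AT4G22517 was the member whose ages overlapped, at 96.1 to 234 CPM and then 35.7, 121 and 97.4 CPM. In wild type AT4G22505 and AT4G22485 went the other way without separating: 145 to 515 and 112 to 363 CPM at 5 days, 476 to 756 and 327 to 666 CPM at 12 days. The difference between genotypes was -3.19 ± 0.57 SE (log2) for AT4G22505 (edgeR adjusted p = 0.438).

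AT4G22513 and AT4G22517 are the closest pair by whole gene, with 88.1% of the longer gene's bases identical, and libraries 9 and 11 had 33.9 and 30.6 CPM of the first and 121 and 97.4 CPM of the second. On the other strand, both genes lie within the span of AT4G22510, AT4G22505 lies within that of AT4G22495, AT4G22485 within that of AT4G22475, and AT4G22520 within that of AT4G22530. Of these partners, AT4G22530 was the one with enough reads to be tested. No source used here states whether strand was used in counting, so reads of a gene and its overlapping partner cannot be told apart. The 6 genes had 99.99 to 100% of their reads assigned uniquely.

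The upstream windows of this pair are shown to compare them, with capitals for the bases that are not identical in the pairwise alignment (192 of 250 are identical). AT4G22505, the member with the lowest p, is printed without capitals; its window had 154 and 146 bases identical to those of the pair. The windows are chr4:11854559-11854808 (plus strand), chr4:11856493-11856742 (plus strand) and chr4:11853019-11853268 (minus strand).
AT4G22513: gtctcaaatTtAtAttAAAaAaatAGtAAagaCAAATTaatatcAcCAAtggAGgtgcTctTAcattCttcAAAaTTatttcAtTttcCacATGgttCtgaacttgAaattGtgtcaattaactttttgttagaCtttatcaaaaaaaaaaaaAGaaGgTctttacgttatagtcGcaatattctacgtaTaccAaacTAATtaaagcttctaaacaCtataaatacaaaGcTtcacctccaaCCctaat
AT4G22517: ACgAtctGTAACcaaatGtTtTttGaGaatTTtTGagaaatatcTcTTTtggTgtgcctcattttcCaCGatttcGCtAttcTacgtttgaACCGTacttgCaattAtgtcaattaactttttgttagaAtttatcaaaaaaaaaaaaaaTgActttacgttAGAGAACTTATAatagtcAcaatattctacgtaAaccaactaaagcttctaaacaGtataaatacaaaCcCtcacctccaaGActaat
AT4G22505: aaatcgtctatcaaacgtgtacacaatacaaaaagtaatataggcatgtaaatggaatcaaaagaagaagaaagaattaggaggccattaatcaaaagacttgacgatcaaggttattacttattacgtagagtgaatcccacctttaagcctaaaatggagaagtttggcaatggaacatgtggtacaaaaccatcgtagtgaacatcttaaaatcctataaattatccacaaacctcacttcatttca
None of the 3 windows held a G-box or an I-box.

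**Figure D5:**
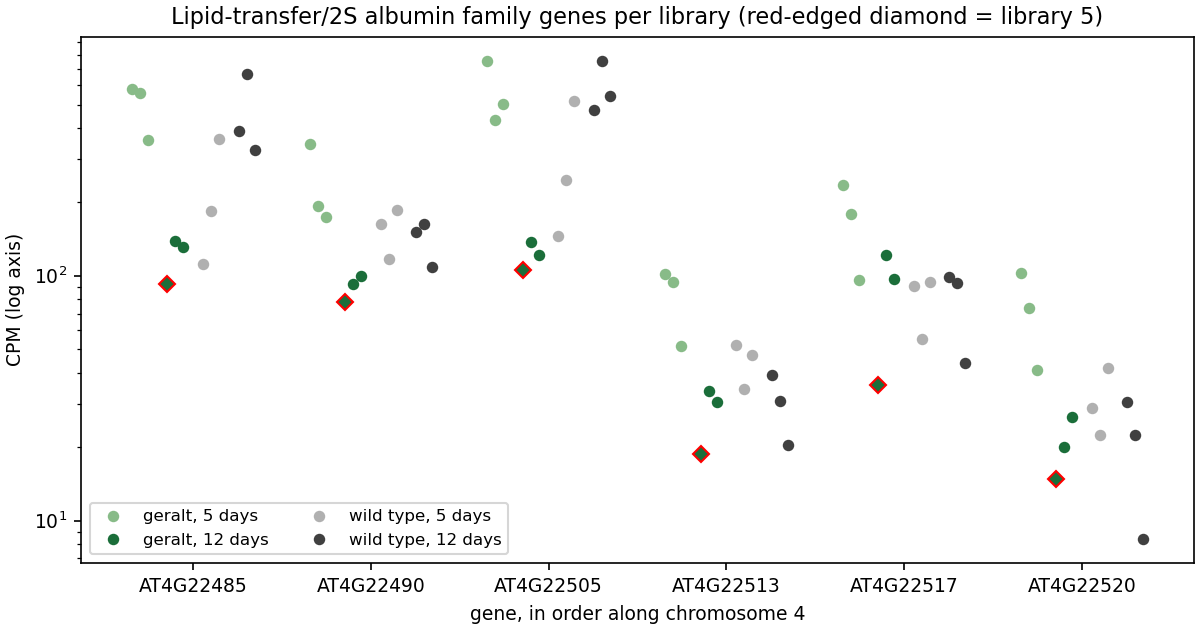
CPM (log axis) of the 6 neighbouring lipid-transfer and 2S albumin family genes, in their order on chromosome 4, in the 12 libraries. In AT4G22505 the 12-day geralt libraries lie at 105 to 137 CPM and the other 9 libraries at 145 to 756 CPM.

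Several genes of surface lipids were lower in all 12-day libraries. Of 16 tested genes of cuticle, wax and lipid transfer, 6 had all 12-day libraries below all 5-day libraries (37.5%, background 4.65%) and 0 above; the median log2 fold change was -0.49, or -0.72 without library 5 and -0.32 without library 9, and -0.09 in wild type. None passed either test. CUT1, the main elongase of wax precursors, was at 1311, 1208 and 897 CPM at 5 days and 718, 775 and 764 CPM in libraries 5, 9 and 11. KCS1, a related elongase, was at 290 to 366 CPM and then 172 to 216 CPM.

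KCS5, an elongase of very-long-chain fatty acids outside that list, was at 89.2, 143 and 81.3 CPM at 5 days and 46.2, 41.3 and 55.1 CPM in libraries 5, 9 and 11. The log2 fold change was -1.13 ± 0.24 SE (edgeR adjusted p = 0.592; DESeq2 adjusted p = 0.0103). GPAT3, a glycerol-3-phosphate acyltransferase, was at 39.6 to 77.4 CPM and then 20.5 to 25.5 CPM. In both genes library 5 was inside the range of the other 12-day libraries or next to it, and no 12-day library reached the lowest 5-day library. MYB96, a regulator of wax synthesis, did not separate: it was at 25.9 CPM in 5-day library 1, 78.5 and 82.5 CPM in libraries 3 and 7, and 26.2 to 30.3 CPM at 12 days.

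Most regulators of the shoot meristem and of leaf polarity had negative log2 fold changes. Of 27 tested genes, 5 were lower without overlap (18.5%, background 4.65%) and 0 higher, and 25 had a negative log2 fold change. The median was -0.26, or -0.45 without library 5 and -0.41 without library 7, and 0.30 in wild type. None passed either test with all libraries. Without library 5, 5 members had a positive log2 fold change, and DESeq2 called 1 lower (0.225% of all genes) and 0 higher (1.13%). YAB5, which acts in leaf polarity, was at 39.6, 45.3 and 36.2 CPM at 5 days and 24.9, 27.0 and 27.9 CPM in libraries 5, 9 and 11 (log2 fold change -0.60 ± 0.17 SE). FIL, its relative, was at 40.6 to 86.8 CPM and then 27.6 to 40.0 CPM, a separation of less than 1 CPM. KNAT1, a homeobox gene of the meristem, was at 32.8, 37.4 and 22.9 CPM and then 22, 14.2 and 13.8 CPM, and STM was at 19.3 to 26.0 CPM and then 17.45 to 18.8 CPM. Without library 5, the lower genes with the smallest p included CYP78A5, a growth regulator of the shoot apex, at 18.0 to 30.1 CPM at 5 days and 6.94 and 6.78 CPM in libraries 9 and 11, with 19.2 CPM in library 5. CYP78A5 did not pass the edgeR test without library 5 (adjusted p = 0.109).

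Heat-shock genes had mostly negative log2 fold changes in both genotypes. Of 12 tested, 11 were negative in geralt and 12 in wild type, with a median of -1.31, or -1.10 without library 5 and -0.54 without library 7, against -1.62 in wild type. In geralt 3 were lower without overlap (25.0%, background 4.65%), and in wild type 5 (background 12.1%). HSP17.6II, a small heat-shock protein, was at 4.61, 1.63 and 3.03 CPM at 5 days and 0.361, 0.622 and 0.754 CPM in libraries 5, 9 and 11, and wild type went from 0.795 to 1.55 CPM to 0.177 to 0.250 CPM. All 3 older libraries of each genotype were below all 3 younger ones. The log2 fold change in geralt was -2.42 ± 0.48 SE (edgeR adjusted p = 0.556; DESeq2 adjusted p = 0.00122). HSP70 (AT3G12580) was at 318, 215 and 415 CPM and then 161, 147 and 183 CPM.

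The stress-induced transcription factor genes STZ, WRKY40 and ERF6 were high in 5-day libraries 3 and 7 and not in library 1. STZ, a zinc-finger repressor induced by many stresses, was at 17.5 CPM in library 1, 592 and 341 CPM in libraries 3 and 7, and 17.2 to 22.5 CPM at 12 days. WRKY40 was at 4.42, 51.1 and 85.2 CPM at 5 days and 4.45 to 8.33 CPM at 12 days. ERF6, an ethylene-response factor, was at 2.35, 22.9 and 21.0 CPM and then 1.73 to 2.38 CPM. Library 1 was within or close to the 12-day range in each of these genes, so their age difference (log2 fold change -3.96 ± 1.33 SE for STZ) rests on 2 libraries. The list of oxidative stress and organelle retrograde genes that holds STZ and WRKY40 had median centred log2 CPM of -0.01, 0.06 and 0.16 in libraries 1, 3 and 7, so the list as a whole did not have this pattern. In wild type, 5-day library 4 had 144 CPM of STZ and libraries 2 and 8 had 11.4 and 8.36 CPM. Of the 23 genes that DESeq2 called lower in geralt, 11 had library 1 more than 3-fold below both libraries 3 and 7.

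Library 5 alone was high in most listed genes of seed-oil use and anthocyanin. Of 16 tested genes of oil mobilisation and the glyoxylate cycle, 13 were above all 5-day geralt libraries in library 5 (background 30.3%). The other 3 were below them (background 30.1%), among them PMDH2 at 160 CPM against 233 to 284 CPM at 5 days. Of 8 tested seed storage and late embryogenesis genes, library 5 was above all 5-day geralt libraries in 1 and below in 2. ICL, the isocitrate lyase of the glyoxylate cycle, was at 114, 116 and 183 CPM at 5 days, 574 CPM in library 5, and 28.2 and 5.73 CPM in libraries 9 and 11. MLS, the malate synthase of the same cycle, was at 14.1, 14.1 and 34.1 CPM, then 79.8 CPM in library 5, and 3.47 and 2.78 CPM in libraries 9 and 11. In both genes libraries 9 and 11 lay below all 5-day libraries and library 5 above them, so the log2 fold change turned from 0.56 to -3.02 for ICL and from 0.47 to -2.74 for MLS when library 5 was left out. Wild type moved as libraries 9 and 11 did, from 41.5 to 84.9 CPM of ICL down to 3.09 to 29.3 CPM.

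Of 16 flavonoid and anthocyanin genes, 12 were above all 5-day libraries in library 5 (background 30.3%). DFR, the first committed enzyme of anthocyanin, was at 0.549, 1.26 and 3.45 CPM at 5 days, 20.5 CPM in library 5, and 1.07 and 0.436 CPM in libraries 9 and 11. LDOX was at 0.233 to 0.434 CPM, 4.40 CPM in library 5, and 0.111 and 0.0595 CPM in libraries 9 and 11. The repressor MYBL2 had the opposite order, 216 to 339 CPM at 5 days, 39.8 CPM in library 5, and 544 and 588 CPM in libraries 9 and 11. The list's median log2 fold change was 0.76 with library 5 and -0.60 without it, and -1.0 in wild type. Of 28 cell cycle and replication genes, 16 were above the 5-day libraries in library 5 (background 30.3%), and the list's median was -0.01, or -0.17 without it.

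The age change was then compared between genotypes. With edgeR, 0 of 21122 genes (0%) had an adjusted p under 0.05 for the interaction of age and genotype, and 2185 (10.3%) had an unadjusted p under 0.05. DESeq2 called 78 of the same 21122 genes. The genes with the smallest p towards geralt were LHCB4.3, AT5G18840 and SMO1-3, a methylsterol monooxygenase of sterol synthesis. SMO1-3 was at 5.24 to 8.45 CPM and then 7.04 to 9.83 CPM in geralt, and at 6.92 to 9.61 CPM and then 3.01 to 3.24 CPM in wild type. Those in the other direction were AT4G22505, AT4G22485 and the uncharacterized AT1G21830, and all 6 had an edgeR adjusted p of 0.438. Genes with no overlap between ages in opposite directions in the 2 genotypes numbered 58 (0.275%) that were higher in geralt and 83 (0.393%) that were lower. In the same direction there were 82 (0.388%) higher and 104 (0.492%) lower in both.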

How the data were processed

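Per the labels, RNA of whole seedlings was made into libraries with a Lexogen mRNA-Seq kit and sequenced in pairs of 150-base reads on 2 lanes, and no source used here names the lane of each library. The deposited per-library tables hold, per the file headers, counts of total, unique, exon and intron gene reads and the authors' TPM for 27655 genes. The TPM values were used only to check that each library sums to 1000000. Per the submitters' processing notes the genome build is TAIR10; no source used here names the aligner. Of these genes, 27444 had the coordinates of the RefSeq genome TAIR10.1, which gave symbols and sequences.

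Total gene reads were tested with edgeR 4.0.16 in R 4.3.3 (filterByExpr by group, TMM, quasi-likelihood, Benjamini-Hochberg, two-sided, threshold 0.05). All 12 libraries entered one fit with 4 group means, which left 8 residual degrees of freedom. DESeq2 1.42.0 was an alternative. CPM are TMM-scaled; log2 CPM for the correlations, scaling plot, age scale and list medians had a prior count of 2. List members were described by counts and medians, with no test of the list. The age scale was meant to use genes called by edgeR in wild type; edgeR called none, so DESeq2 calls were used. The fits were tested on simulated data with 200 changed genes. Replicates of a group differed beyond sampling noise in every pair.

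Named genes were PHR2, the 10 smallest p in each direction (none passed), the 6 largest or smallest p in each direction without library 5 and the next 5 with a symbol, 3 in each direction of the interaction, and 2 members per list. CYP79F1, BAT5, MAM1, FMO GS-OX3, MYB28, MYB29, CYP83B1, SOT16, LHCB1.4, LHCA4, GPRI1, FIL, STM, SPL9, HSP70, CUT1, MYBL2, LDOX, DFR, ICL, MLS, ERF6, SPX1, ACD1, AT4G22517, AT4G22520 and their neighbours were added after their values were seen. Genes, lists and members were chosen with earlier results of these data known. Alternatives were other size factors, DESeq2, no filter, geralt alone, no organellar genes, unique reads, and each library left out.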

Additional observations from a re-analysis of the deposited data

Results flagged for a closer look

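In 6 of the named genes all 12-day libraries lay on one side of all 5-day libraries in geralt and on the other side in wild type. The interaction of age and genotype was tested in the edgeR fit and none of the 6 passed (adjusted p 0.438 for each). Over all genes, 0.275% had geralt higher with wild type lower and 0.393% the reverse. Some named genes were chosen for a small p of the age change or of the interaction. The count of 6 is therefore a description and is not read against these shares.

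LHCB4.3, an antenna gene, had an interaction of 3.02 ± 0.54 SE (log2): it was higher at 12 days in geralt and lower in wild type. FMO GS-OX3, a side-chain oxidase of aliphatic glucosinolates, had 1.98 ± 0.49 SE, with 6.10 to 15.4 CPM and then 17.8 to 40.6 CPM in geralt against 25.6 to 35.0 CPM and then 18.5 to 25.1 CPM in wild type.

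The other 4 were lower at 12 days in geralt and higher in wild type. KCS5 had an interaction of -1.76 ± 0.34 SE, and AT1G21830 had -1.83 ± 0.34 SE. NCED3, which makes the precursor of abscisic acid, had -3.36 ± 0.79 SE, with 3.87 to 13.5 CPM and then 0.830 to 3.77 CPM in geralt against 4.26 to 8.77 CPM and then 11.2 to 23.5 CPM in wild type. IRX3, a cellulose synthase of secondary walls, had -0.93 ± 0.29 SE, with 12.4 to 15.3 CPM and then 8.06 to 12.3 CPM in geralt.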

How the results depend on the processing

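With edgeR, the count of genes passing between 12 and 5 days in geralt stayed at 0 higher and 0 lower with other size factors, no filter on low counts, the 6 geralt libraries alone, organellar genes left out and unique reads; DESeq2 gave 39 higher and 23 lower. Leaving out 1 library at a time with edgeR gave 0 to 8 higher and 0 lower, the 8 without 12-day library 5. DESeq2 with 1 geralt library left out, added after seeing the data, gave 32, 22 and 17 higher without 5-day libraries 1, 3 and 7, and 242, 11 and 22 without 12-day libraries 5, 9 and 11. In the same order it gave 85, 4 and 8 lower and 48, 7 and 27 lower. DESeq2 kept 55 of its 62 calls without library 5. In wild type DESeq2 gave 666 higher and 463 lower, and edgeR 0 to 225 higher and 0 to 201 lower, the largest counts without 12-day library 6. The interaction gave 78 of 21122 genes with DESeq2. Without single geralt libraries DESeq2 gave 25 of 21311 (without library 3) to 127 of 21384 (without library 11). For the interaction edgeR gave 0, and 0 to 2 without single libraries. The cause of the difference between the tools was not tested.

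The log2 fold change of some named genes changed sign when 1 library was left out. PHR2 ranged from -0.23 to 0.25, and was above 0 without library 1 (0.25) or 9 (0.084). PHR1 ranged from -0.65 to 0.086, and was above 0 without library 9 (0.086) or 11 (0.047). MYB28 ranged from -0.18 to 0.48, and was below 0 without library 3 (-0.18), 7 (-0.078) or 11 (-0.096). The lowest value came without library 11 for CRA1 (-1.02, otherwise up to 3.03) and IAA29 (-0.26, up to 1.905). It came without library 7 for GPRI1 AT2G20570 (-0.0022, up to 0.51) and SPL9 AT2G42200 (-0.050, up to 0.93). Without library 5 it was -1.39 for GSTF12 (otherwise up to 2.51), -2.74 for MLS (up to 1.02), -3.02 for ICL (up to 1.14) and -1.22 for DFR (up to 3.03). The geralt positions on the age scale moved by less than their spread with other size factors. No paired analysis was possible because the library numbers differ in every group. With 3 libraries a group, changes smaller than the spread between libraries could not be detected.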

Other observations

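Some phosphate-starvation genes were higher in all 3 of the 12-day libraries, library 5 included. Of 16 tested phosphate-starvation genes, 4 were higher at 12 days without overlap (background 4.73%) and the median log2 fold change was 0.40 in geralt, or 0.61 without library 5, and 1.12 in wild type. Among 17 iron homeostasis genes 0 were higher without overlap, and among 14 of nitrogen and sulfur assimilation 1 was. PAP17, a purple acid phosphatase, was at 7.99, 5.58 and 9.29 CPM at 5 days and 15.4, 20.6 and 14.3 CPM in libraries 5, 9 and 11. SPX1, a phosphate sensor, was at 2.21 to 7.38 CPM and then 8.98 to 10.4 CPM. Of 20 tested root markers, 1 was higher without overlap (5%, background 4.73%), the nitrate transporter gene NRT2:1. It was at 0.294 to 0.341 CPM at 5 days and 4.93, 11.2 and 2.1 CPM at 12 days. No gene of these lists passed the edgeR test (log2 fold change 4.27 ± 1.35 SE for NRT2:1).

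Of 15 tested senescence and sugar-starvation genes, 4 were higher without overlap (background 4.73%). SAG13 was at 0.590, 1.15 and 0.826 CPM at 5 days and 5.59, 18.5 and 14.5 CPM in libraries 5, 9 and 11. The chlorophyll-breakdown genes PPH and ACD1 were at 22.9 to 33.6 and 87.7 to 94.2 CPM and then at 41.3 to 58.2 and 98.6 to 150 CPM. The flowering signal FT was read in libraries 9 and 11 (0.889 and 2.06 CPM) and listed at 0 to 0.0465 CPM in the other 4 geralt libraries. EDS5, a transporter in salicylic acid synthesis, was at 3.68 to 5.54 CPM and then 8.22 to 9.26 CPM.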
